A study of Homo sapiens with 6 samples.

Results

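Of the accessible regions that ATAC-seq found in the beta cell line EndoC-βH3, 727 were at least 2000 bp wide and lay at a protein-coding promoter on an autosome. They were selected on width, as the end minus the start of the region in hg38, and on overlap with the 2 kb on either side of a GENCODE 44 protein-coding start site. The table held 108542 regions, of which 105696 were autosomal and 19445 lay at promoters. The wide ones were thus 3.74% of the promoter regions (95% Wilson interval 3.48 to 4.02%). The other 18718 promoter regions were narrower and served for comparison. ATAC-seq uses the transposase Tn5, which inserts sequencing adapters into open DNA, so that reads pile up where chromatin is accessible.

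EndoC-βH3 is a human beta cell line derived from fetal pancreas and immortalised with SV40 large T antigen and hTERT, which sit between loxP sites and can be excised. In the senescent group (3 libraries), 4-hydroxytamoxifen had activated a Cre recombinase fused to the estrogen receptor for 3 weeks. The non-senescent group (3 libraries) was untreated and kept the transgenes. Both groups carried the transgenes at the outset and have the same wild-type genotype label, and each library came from 100000 cells of this 1 line, so the libraries are not separate donors. Each region has only the authors' mean of the normalised counts over all 6 libraries, the mean count below. No value and no depth of a single library could therefore be given, and the senescent and non-senescent groups were not compared. All 13 beta cell markers examined (among them *INS*, *PDX1*, *NKX6-1* and *MAFA*) had a promoter region. So did 7 of 9 autosomal markers of other pancreatic, stromal, endothelial and immune cells. *GCG* and *KRT19* were among these 7, whereas *PRSS1* and *PTPRC* had none. Over all autosomal protein-coding genes, 14968 of 18765 had a promoter region, so having one was common. The presence of a region does not show transcription.

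Most vertebrate promoters of broadly used genes lie in CpG islands, stretches in which the CpG dinucleotide has escaped the loss caused by methylation and deamination. Such promoters often start transcription at many positions and tend to be open in many tissues. Promoters outside islands tend to be used in few tissues. Narrow nucleosome-free gaps give short accessible regions, whereas removal or mobility of several nucleosomes on either side of the start site gives wide ones.

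Sequences from the flanks of wide and narrower regions are shown first because CpG density away from the middle was where they differed most. Each stretch holds 150 bases beginning 800 bp from the middle of its region, on the plus strand of hg38, with every CpG in capitals, and none overlaps an annotated exon. The wide regions at *FASN* (fatty acid synthase), *ADGRL2* (the adhesion receptor latrophilin 2) and *LRATD1* were the widest with a CpG-island stretch of at least 1500 bp and an exon-free flank, among the chromosomes considered. Each is followed by a narrower region with nearly the same mean count and a shorter island, at *E2F3* (a cell cycle transcription factor), *ZNF487* and *TOR1AIP1* (a nuclear envelope protein) respectively. These narrower regions measured 1291, 1363 and 1319 bp, so their stretches lay outside them, whereas those of the wide regions lay inside.
FASN, chr17:82096539-82096688: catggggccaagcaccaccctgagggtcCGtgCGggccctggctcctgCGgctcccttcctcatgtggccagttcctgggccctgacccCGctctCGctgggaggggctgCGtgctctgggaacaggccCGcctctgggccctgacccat
E2F3, chr6:20402651-20402800: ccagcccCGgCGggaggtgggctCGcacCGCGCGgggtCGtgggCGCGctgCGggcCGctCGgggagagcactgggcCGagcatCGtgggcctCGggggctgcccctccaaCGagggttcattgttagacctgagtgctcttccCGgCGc
ADGRL2, chr1:81802751-81802900: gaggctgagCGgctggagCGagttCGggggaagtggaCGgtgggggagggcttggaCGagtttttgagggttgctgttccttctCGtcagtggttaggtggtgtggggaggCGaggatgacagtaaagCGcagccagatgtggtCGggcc
ZNF487, chr10:43437642-43437791: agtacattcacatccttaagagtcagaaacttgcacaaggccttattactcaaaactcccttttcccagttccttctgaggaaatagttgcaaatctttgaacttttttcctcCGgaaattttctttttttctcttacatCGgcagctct
LRATD1, chr2:14633037-14633186: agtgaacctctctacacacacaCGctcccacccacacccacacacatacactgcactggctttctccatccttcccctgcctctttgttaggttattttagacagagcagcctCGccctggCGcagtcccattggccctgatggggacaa
TOR1AIP1, chr1:179883380-179883529: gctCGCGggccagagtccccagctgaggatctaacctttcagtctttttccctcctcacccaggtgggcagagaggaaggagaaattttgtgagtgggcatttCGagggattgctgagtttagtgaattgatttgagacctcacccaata
The stretch at *FASN* held 7 CpGs and that at *E2F3* 18. The *ADGRL2* stretch held 9 and the *ZNF487* stretch 2. Both *LRATD1* and *TOR1AIP1* held 3. Single pairs thus went either way, and the difference described below is one of averages over many regions.

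The wide regions measured 2000 to 5533 bp, with a median of 2239 bp and quartiles of 2096 and 2470 bp. A width of at least 2500 bp was reached by 165 of them, 3000 bp by 41, 3500 bp by 11 and 4000 bp by 1. Their edge was not a natural gap. The narrowest were at *LMO2* and *SLC43A1* (2000 bp each, with mean counts of 591 and 816), followed by *FUT9* and *ADO* (2001 bp). Just under the limit were *NAB1* (1 bp short, mean count 709), *TRIM41* (1998 bp, 2712) and *UAP1* (1997 bp, 4130).

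The widest region, of 5533 bp at chr11:2153680-2159212, contained a start site of *IGF2*, an imprinted growth factor, and lay 1759 bp from the nearest annotated start site of *INS*, the insulin gene, which it did not contain. It reached 821 bp upstream and 4711 bp downstream of the *IGF2* start. Its mean count of 7894 was the second highest of the wide regions. Next came *ABHD15* with *TP53I13*, a p53-inducible gene, at 3968 bp and a mean count of 3490. *GADD45G*, a stress-inducible growth arrest gene, had 3875 bp and a mean count of 2314. *DUSP4*, a nuclear MAP kinase phosphatase, had 3791 bp and 2181, and *FASN* had 3740 bp and 2440. These 5 regions had mean counts above the median of the wide regions.

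The rest of the 10 widest were at *MZT2B* with *SMPD4* (3634 bp, mean count 3083), *ADGRL2* (3576 bp, 1802), *ANG* with *RNASE4* (3573 bp, 2723), *ADM* (3561 bp, 1837) and *LINGO2* (3528 bp, 1933). *ANG* and *RNASE4* encode secreted ribonucleases that share promoters, and *ADM* encodes the peptide hormone adrenomedullin. *MZT2B* encodes a partner of the gamma-tubulin ring complex and *SMPD4* a neutral sphingomyelinase. The list therefore mixed stress and signalling genes with metabolic and neuronal ones.

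Wide promoter regions had high mean counts. Their median mean count was 1343 (95% interval 1257 to 1422, quartiles 859 and 1977), against 486 for all narrower promoter regions, and 663 of the 727 lay above the median of all promoter regions. A count grows with the width of the region over which it is summed, so it was also divided by length. Per kb the median was 585 in the wide regions and 509 in the narrower ones, and 424 of the 727 lay above the median per kb of all promoter regions. When the narrower regions were weighted to the mean counts of the wide ones over 20 bins of equal number, they had a median of 1334 per region and 1109 per kb. The lower value per kb at a like mean count follows from the selection on width. All intervals cover counting error over regions, since regions are not replicates.

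The share of wide regions rose with the mean count. It was 0% in the lowest of the 20 bins (0 of 973, which allows up to 0.393%), 2.68% in the tenth, 4.63% in the fifteenth and 14.3% in the highest (139 of 973, 12.2 to 16.6%). Spearman's rho of width and mean count was 0.71 over the 19445 promoter regions and 0.21 over the 727 wide ones, and for the mean count per kb it was 0.40 and 0.03. These regions share the same libraries, and peak calling needs reads, so the coefficients are descriptions. The plot of width against mean count shows a cloud that bends, with width increasing at low counts and varying widely at high ones.

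**Figure D1:**
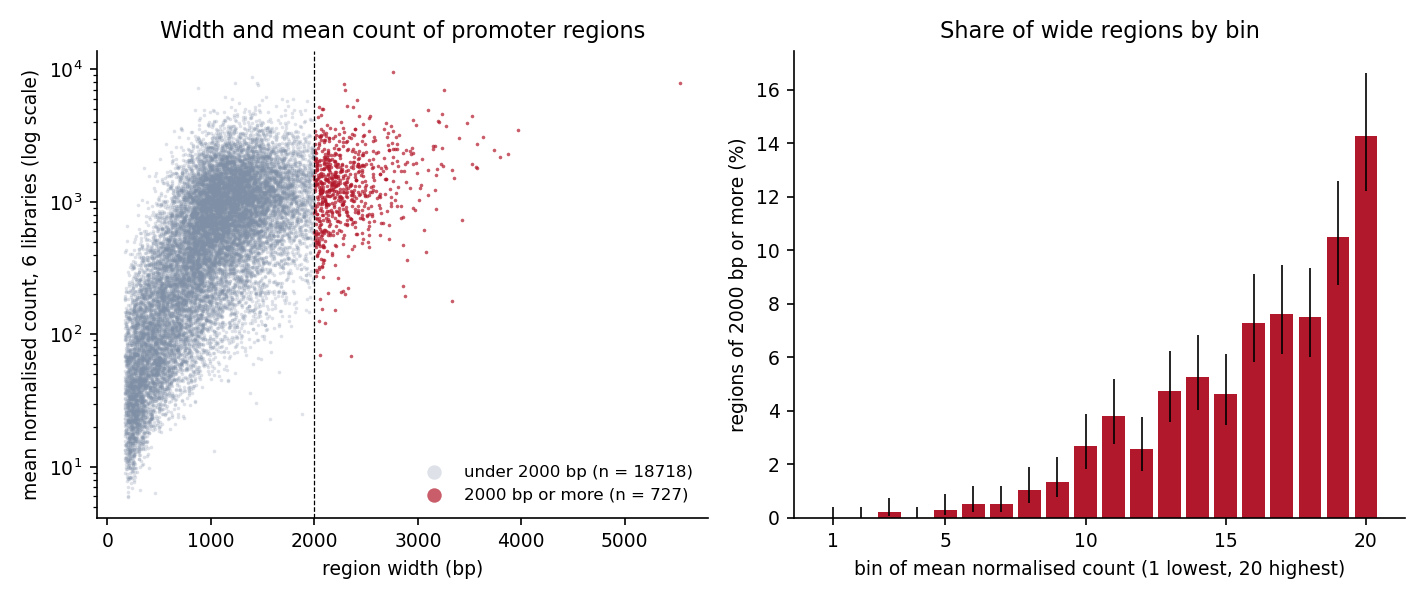
Left, width in bp (linear axis) against the mean normalised count over 6 libraries (log axis) for the 18718 narrower (grey) and 727 wide (red) autosomal promoter regions, with the dashed line at 2000 bp. Right, percentage of regions of at least 2000 bp in each of 20 equal-number bins of mean count, with 95% Wilson intervals, from 0% in the lowest bin to 14.3% in the highest.

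The highest mean count was at *PTMA*, which encodes prothymosin alpha, with 9543 over 2762 bp. *IGF2* followed with 7894, *ZNF687* with 7764 over 2283 bp, *MBOAT7* with *TSEN34* with 7021 over 2294 bp and *TAGLN2*, an actin-binding protein gene, with 6985 over 3253 bp. *MAB21L4* (5887), *RUSC1* (5288), *DUSP10* (5204), *PPP2R5A* (5161) and *AKT1S1* with *TBC1D17* (4999) completed the 10 highest. Per kb, *PTMA* (3455), *ZNF687* (3401) and *MBOAT7* with *TSEN34* (3061) led again, then *PPP2R5A* (2526) and *MAB21L4* (2437). *DUSP10* encodes a MAP kinase phosphatase, *PPP2R5A* a regulatory subunit of protein phosphatase 2A and *AKT1S1* an inhibitor of mTORC1.

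A small group was wide and weak. The 64 members at or under the median of all promoter regions had a median mean count of 395, against 1435 in the other 663. The lowest were near *NPIPB3* (68.5) and near *RGPD3* (70.2), which belong to duplicated gene families whose copies share reads, so that these counts are uncertain. Then came the regions near *IRF4*, a lymphoid transcription factor gene (123), at *CACNB4*, a calcium channel subunit gene (127), and at *EYA4*, a transcriptional coactivator gene of development (153). Per kb the lowest were again *NPIPB3* (29.1), *RGPD3* (34.1), *TAF11L7* (53.9), *IRF4* (58.3) and *CACNB4* (62.0). *TAF11L7* too belongs to a family of near-identical copies. The median CpG-island stretch of the weak group was 1200 bp, against 1300 bp in the rest, and observed over expected CpG was 0.80 against 0.82. A lncRNA start lay inside 15.6% of the weak regions and 33.8% of the others. The nearest gene had a median length of 113130 bp in the weak group and 54139 bp in the others, and 12 of the 64 had no coding start inside.

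CpG content was high in the wide regions and stayed high far from the middle. In the 1000 bp around the middle, a window of 1 length for all regions, they had a median of 9.2 CpGs per 100 bp (8.9 to 9.4), against 7.7 in narrower regions of like mean count. Every wide region fills this window, whereas a region under 1000 bp does not. GC content was 67.4% (66.9 to 68.1%) against 63.9%. The ratio of observed to expected CpG, which corrects for base composition, was 0.817 (0.806 to 0.830) against 0.777. The medians of the narrower regions thus fell outside the intervals of the wide ones. With 500 bp around the middle, the ratio was 0.820 against 0.812, and the weighted value lay inside the interval of 0.805 to 0.833. Over the whole of each region, the differences were smaller than in the 1000 bp window. The medians were 7.83 (7.66 to 8.01) against 7.29 CpGs per 100 bp, and the ratio was 0.777 (0.767 to 0.786) against 0.757.

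The difference in CpG density was larger in the flanks than near the middle. At 100 bp upstream of the middle in genome order, the average was 9.09 CpGs per 100 bp in the wide and 8.65 in the narrower regions of like mean count. At 900 bp it was 6.22 against 2.85 on that side and 6.16 against 2.91 on the other. At 1300 bp it was 3.35 against 2.06. The narrower regions had a median width of 948 bp before weighting, and all promoter regions in the highest bin of mean count one of 1415 bp. Every wide region still lies inside its own bounds at 900 bp, whereas most narrower ones have ended. The contrast there thus sets sequence inside wide regions against sequence mostly outside narrower ones. The longest CpG-island stretch that touched the middle 1000 bp (windows of 200 bp with over 50% GC and a ratio over 0.6) had a median length of 1250 bp (1200 to 1300 bp) against 900 bp. Stretches of at least 1000 bp were found at 510 of 727 wide regions, or 70.2%, against 41.6%, a difference of 28.5 percentage points (24.9 to 31.9). Stretches of at least 2000 bp were found at 11.8% against 2.40%. The longest were at *H2AC19* with *H3C15* (3550 bp), *FOXO3* (3350 bp) and *CHST2* (3150 bp). These 3 were chosen after their values were seen.

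**Figure D2:**
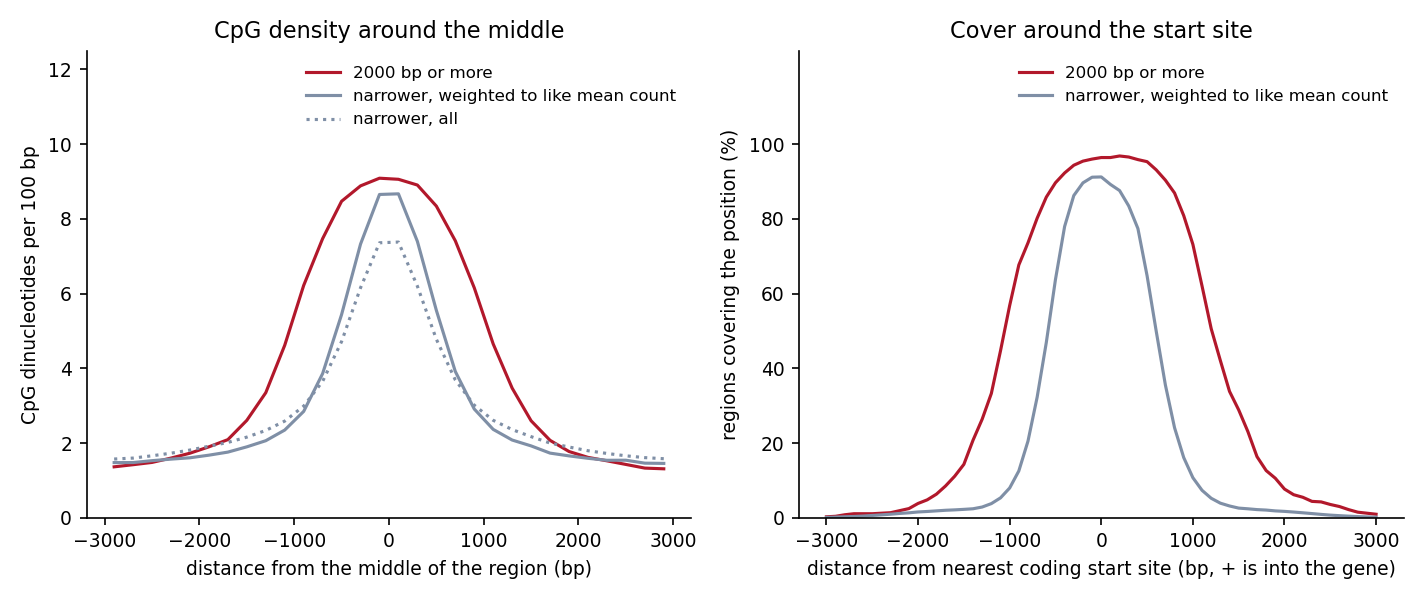
Left, average CpG dinucleotides per 100 bp against distance in bp from the middle of the region, for wide regions (red), narrower regions weighted to like mean count (grey) and all narrower regions (dotted). Right, percentage of regions that cover each position against distance in bp from the nearest coding start site, positive into the gene. At 900 bp from the middle, where most narrower regions have ended, the wide regions hold 6.22 CpGs per 100 bp and the weighted narrower ones 2.85.

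Within the wide regions, island length hardly followed width. Spearman's rho was 0.10 for width and island stretch, −0.03 for width and the CpG ratio, and 0.02 for mean count and island stretch (727 regions). Over all 19445 promoter regions, rho for width and island stretch was 0.43. In the narrowest, middle and widest groups of wide regions (2000 to 2135, 2136 to 2381 and 2382 to 5533 bp), the median island stretch was 1250, 1250 and 1350 bp.

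Only 22 of the 727 had a CpG ratio under 0.4 (3.03%, 2.01 to 4.54%), against 8.16% of narrower regions of like mean count. The *IGF2* region was one of them, with a ratio of 0.21 and no island stretch. Its middle 150 bases, shown to set beside the island flanks above, hold 0 CpGs.
IGF2 region, chr11:2156371-2156520: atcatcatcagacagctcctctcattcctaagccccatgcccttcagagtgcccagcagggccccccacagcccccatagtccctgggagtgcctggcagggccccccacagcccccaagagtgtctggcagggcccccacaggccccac
Other CpG-poor members were *RAP1GAP* (3397 bp, ratio 0.31), *TAGLN2* (3253 bp, 0.33), *KIAA1614* (2694 bp, 0.24), *USH1C* (2638 bp, 0.15) and *MAB21L4* (2416 bp, 0.22). Apart from *IGF2*, *TAGLN2* and *MAB21L4*, they were chosen after their values were seen. *USH1C* encodes the scaffold protein harmonin and *RAP1GAP* a GTPase-activating protein for Rap1. *TAGLN2*, *IGF2* and *MAB21L4* were also among the 10 members with the highest mean count, and *USH1C* had a mean count of 1614.

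The wide regions extended both ways from the coding start site nearest their middle. The median reach was 1064 bp upstream (1025 to 1091 bp) and 1209 bp downstream (1170 to 1245 bp) of the nearest coding start, against 595 and 617 bp in narrower regions of like mean count. They went further downstream than upstream in 59.8% of cases (56.2 to 63.3%), against 51.8%. At 1000 bp downstream, 73.2% of the wide and 10.7% of the narrower regions covered the position, and at 1000 bp upstream 56.8% and 7.99%. A longer reach follows from the selection. A reach on both sides follows in part from measuring at the start nearest the middle. Among all narrower regions without weighting, 56.3% went further downstream, which lay inside the interval of the wide ones. Whether the lean towards the gene body depends on the selection was not tested. Exons of coding genes made up a median of 623 bp, and 1855 bp lay within coding genes.

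A coding start site lay inside 701 of the 727 wide regions, or 96.4%, against 91.2% of narrower regions of like mean count. A longer region can contain a start by length alone, and this share was not repeated in a window of fixed length. The other 26 wide regions lay within 2 kb of a start. Among them were regions near *KDM6B*, a histone demethylase gene, and *EFNA5*, an ephrin gene, both chosen after their values were seen. In all, 823 coding genes started inside a wide region. Starts of at least 2 coding genes were found in 15.7% of the wide regions (114 of 727) and in 14.8% of the narrower ones, a difference of 0.895 percentage points with an interval of −1.69 to 3.81. In a fixed 2000 bp around the middle, the shares were 14.9% and 15.3%. For starts of at least 2 coding genes, a difference was thus not detectable at a like mean count. Without bins of mean count the difference was 8.10 percentage points, and with bins of the count per kb it was 7.41. The starts inside numbered a median of 3 in the wide and in the narrower regions of like mean count. They spanned a median of 327 bp, against 66 bp, but the span is bounded by the width on which the regions were selected.

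Starts of lncRNA genes were more frequent. They lay inside 32.2% of the wide regions (234 of 727, 28.9 to 35.7%) and 21.5% of narrower regions of like mean count. In the fixed 2000 bp around the middle, they lay at 30.1% and 22.9%, a difference of 7.20 percentage points (3.85 to 10.8). LncRNAs are transcripts without a long reading frame, and many start on the opposite strand of a coding promoter.

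The nearest gene tended to be long. Its median length was 57751 bp (50172 to 67947 bp) at wide regions and 38377 bp at narrower ones of like mean count. Genes of at least 100 kb made up 37.7% (34.2 to 41.3%) against 22.4%. *LINGO2* (1275985 bp) and *ADGRL2* (687786 bp) were examples among the 10 widest, and *ADM* (2325 bp) and *GADD45G* (1544 bp) were short. Genes under 10 kb also had a slightly higher share, 19.3% against 16.2%, a difference of 3.02 percentage points (0.197 to 6.14). Within the members, the median length went from 79761 bp in the narrowest group to 48824 bp in the widest.

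Short motifs of transcription factors with well-known promoter sites were counted on both strands in the 300 bp around the middle. No motif's letters contained those of another. 12 of 14 were rarer in wide than in narrower regions of like mean count. CCAAT, the site of the trimeric factor NF-Y, was found at 18.2% of the wide regions (15.5 to 21.1%) against 31.4%, a difference of −13.2 percentage points (−16.1 to −10.1), with a share of 24.1% among all promoter regions. CCGGAAGT, a core of the ETS family, was found at 0.825% (6 of 727) against 5.49%, and at 3.44% of all promoter regions. AAGATGGCG (YY1) was found at 0.963% against 3.30%, with 1.91% overall. GCGCATGC (NRF1) was found at 1.24% against 3.46%, with 2.2% overall. CACGTG, the E-box of MYC and USF proteins, was found at 4.54% against 7.47%, with 6.61% overall. GTTGCCA, a partial site of RFX factors, was found at 1.79% against 3.48%, with 3.56% overall. The intervals of these 6 differences did not include 0.

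The middle of a wide region need not be its start site, since the median distance was 259 bp in the wide and 118 bp in the narrower regions. In the 300 bp around the nearest start site, CCAAT was found at 22.01% against 36.3%, CCGGAAGT at 2.48% against 7.03%, AAGATGGCG at 1.79% against 4.29% and CACGTG at 5.09% against 8.18%. For 2 others the interval of the difference then included 0, GTTGCCA at −1.06 percentage points (−2.02 to 0.364) and GCGCATGC at −1.13 (−2.32 to 0.519). The number of motifs rarer in the wide regions was 8 of 14 in this window. GGGCGG, the GC box of Sp and KLF factors, was found at 63.7% against 68.2% around the middle but at 76.5% against 73.6% around the start site, so its direction depended on the window. It was present in 55.5% of all promoter regions around the middle. TATAAA, the TATA box, was found at 5.92% against 3.06% around the start site, with 5.46% overall. Around the middle it was found at 3.85% against 2.97%, with 4.81% overall. The interval of the difference around the middle included 0 (−0.355 to 2.58 percentage points), and without bins that difference was −0.994. The CCAAT difference was −9.53 percentage points when bins of GC content were added to those of mean count, −6.16 without bins and −4.75 with bins of the count per kb. Bins of GC content made the GGGCGG difference −10.7.

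The other 6 motifs had differences with intervals that included 0. They were TGACGTCA (CREB and ATF factors, 1.10% against 2.16%, 1.42% overall), TGACTCA or TGAGTCA (AP-1, 1.93% against 2.17%, 3.18% overall), TTTGGCGC or TTTCGCGC (E2F, 1.51% against 1.54%, 1.11% overall), TAATTA (homeodomain factors, 1.79% against 1.26%, 2.4% overall), TGTTTAC (forkhead factors, 1.65% against 2.22%, 3.14% overall) and TGCTGAC (MAF factors, 2.61% against 3.65%, 4.32% overall). A match of letters does not show binding.

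**Figure D3:**
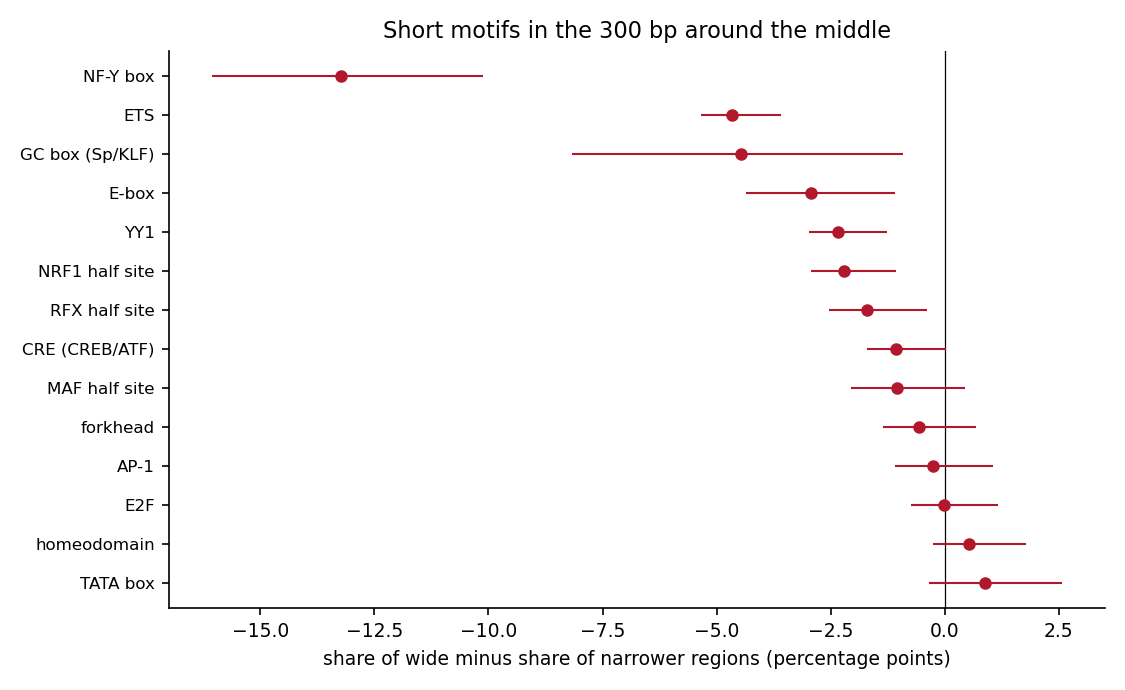
Difference in the percentage of regions that hold each of 14 short motifs on either strand in the 300 bp around the middle, wide minus narrower weighted to like mean count, in percentage points, with 95% Newcombe intervals (horizontal bars). The NF-Y box has the most negative value, −13.2, and the GC box is negative here but was more frequent in wide regions around the start site.

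By gene, 869 of 14968 protein-coding genes with an autosomal promoter region had a wide one, or 5.81% (5.44 to 6.19%). Gene lists were set beside this share and beside the share given by the bins of mean count of their own genes. In 7 of 16 lists the measured share was above the latter. Lists were described by counts, without a test.

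**Figure D4:**
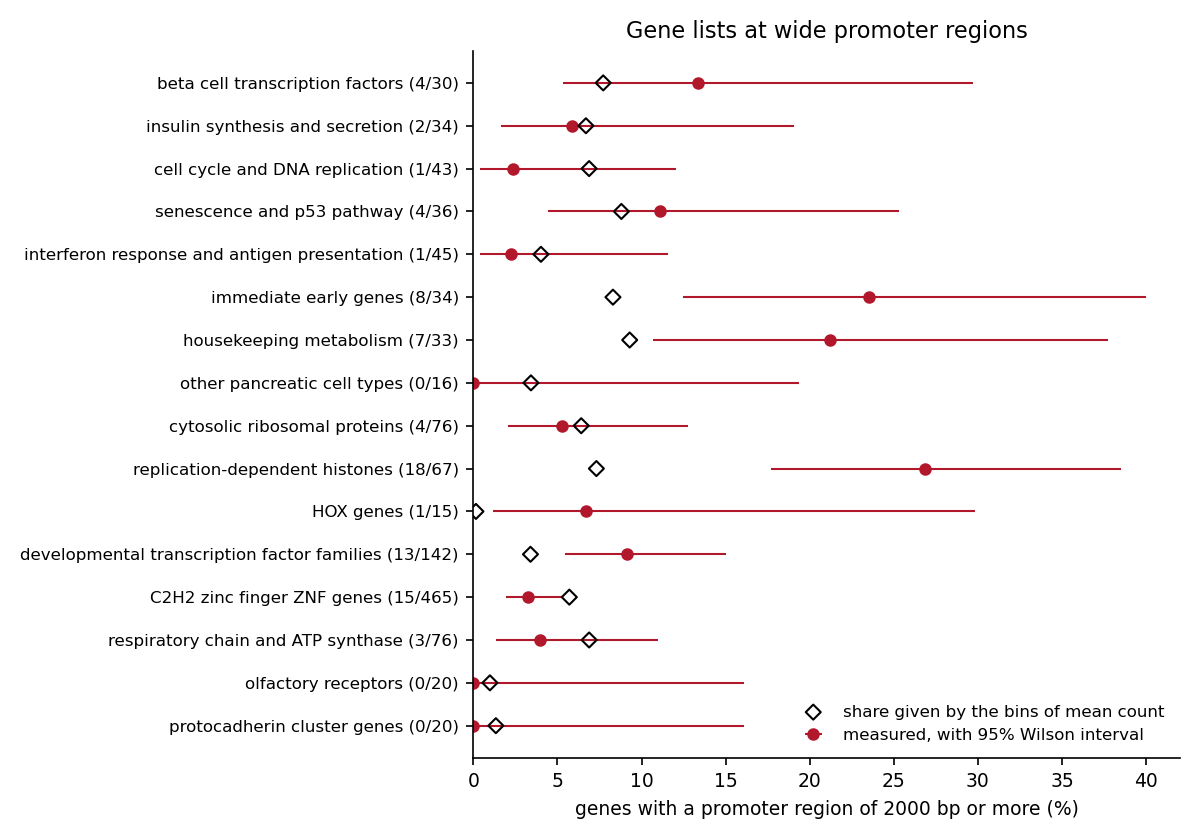
Percentage of genes of each list with a promoter region of at least 2000 bp (red points, 95% Wilson intervals; wide genes and genes with a promoter region in parentheses) and the percentage given by the bins of mean count of the same genes (open diamonds). Histone, immediate early, housekeeping, HOX and developmental factor genes have intervals above their diamonds (1 gene among the HOX genes), and ZNF genes one below.

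Immediate early genes, which respond to signals within minutes, had wide regions at 8 of 34, or 23.5% (12.4 to 40.0%), against 8.30% from the bins. *DUSP4* was the widest. *KLF4*, a pluripotency and stress factor gene, had 3241 bp and a mean count of 1868, and *JUN*, a subunit of AP-1, had 2673 bp and 3517. *EGR2* (2618 bp), *ZFP36L2* (2568 bp), *BTG1* (2529 bp, mean count 4287), *DUSP1* (2242 bp) and *FOS* (2032 bp) were the others. *FOS* encodes the partner of JUN, and *DUSP1* a MAP kinase phosphatase. The widest regions of *EGR3* (1994 bp), *EGR1* (1651 bp), *MYC* (1290 bp) and *JUNB* (914 bp) stayed under the limit.

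Replication-dependent histone genes, which are transcribed in S phase from compact clusters, had wide regions at 18 of 67, or 26.9% (17.7 to 38.5%), against 7.31%. The 18 genes shared 9 regions, so they are not 18 separate observations. The widest were the regions of *H2AC20*, *H2AC21* and *H2BC21* (3233 bp, mean count 4581), of *H2AC18* and *H3C14* (3208 bp, 4013) and of *H2AC19* and *H3C15* (3195 bp, 4054). The last 2 are near-identical copies whose reads cannot be assigned with certainty. Many H2A and H2B genes are transcribed in opposite directions from a common promoter, and the 235 bases between the annotated starts of *H2BC21* and *H2AC20* show its layout. Capitals mark CCAAT or its reverse complement, found 3 times, and TATAAA or its reverse complement, found 2 times.
H2BC21-H2AC20, chr1:149886683-149886917: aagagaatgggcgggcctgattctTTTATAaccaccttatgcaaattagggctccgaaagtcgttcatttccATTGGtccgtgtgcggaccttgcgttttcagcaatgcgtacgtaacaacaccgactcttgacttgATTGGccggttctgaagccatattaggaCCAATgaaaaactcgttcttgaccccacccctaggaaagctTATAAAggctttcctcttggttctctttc
Both TATA boxes lay near an end of the stretch, and the CCAAT sites lay between them.

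Housekeeping genes had wide regions at 7 of 33, or 21.2% (10.7 to 37.8%), against 9.29%. They were *ACTG1* (2684 bp, mean count 1483), *EEF2* (2293 bp, 678), *ACTB* (2278 bp, 1565), *HSP90AB1* (2196 bp, 2015), *YWHAZ* (2105 bp, 2940), *POLR2A* (2085 bp, 2074) and *PKM* (2026 bp, 2019). *ACTB* and *ACTG1* encode the cytoplasmic actins, *EEF2* a translation elongation factor and *POLR2A* the largest subunit of RNA polymerase II. The region of *GAPDH*, at 1903 bp, was narrower. Other abundant classes did not stand above their bins. Wide regions were found at 4 of 76 ribosomal protein genes (5.26% against 6.41%), namely *RPL7* (2563 bp), *RPL28* (2120 bp), *RPL12* (2051 bp) and *RPS12* (2002 bp). They were found at 3 of 76 genes of the respiratory chain and ATP synthase (3.95% against 6.88%), namely *NDUFS6* (2489 bp), *UQCRH* (2207 bp) and *COX4I1* (2203 bp).

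Transcription factor families of development had wide regions at 13 of 142 genes, or 9.16% (5.43 to 15.03%), against 3.39%. The median mean count of the 142 genes, 227, was below the 859 of all genes. Their 13 wide regions, however, had mean counts from 523 to 3184. Those of *PAX6*, *GATA4* and *GATA6* also count in the beta cell list. The widest were *FOXP2* (2924 bp, mean count 1280), *FOXO3* (2753 bp, 1953) and *GATA6* (2722 bp, 525), the last a regulator of endoderm and pancreas. Of 15 HOX genes with a promoter region, *HOXD1* had a wide one of 2260 bp, with a mean count of 210 and a CpG ratio of 0.92. ZNF genes, the large C2H2 zinc finger family, went the other way, with 15 of 465, or 3.23% (1.964 to 5.25%), against 5.70%. The widest in that family were *ZNF462* (2744 bp), *ZNF276* (2533 bp) and *ZNF821* (2531 bp).

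Beta cell transcription factors had wide regions at 4 of 30, or 13.3% (5.31 to 29.7%), against 7.72% from the bins, which lay inside the interval. *PAX6*, required for islet hormone gene expression, had 2014 bp and a mean count of 3184. *RFX6*, a factor of islet development, had 2195 bp and 1616, *GATA4* 2323 bp and 1270, and *GATA6* 2722 bp and 525. *PDX1* (1410 bp), *NEUROD1* (1331 bp), *NKX6-1* (1081 bp), *NKX2-2* (771 bp) and *MAFA* (575 bp) had narrower regions. Of 34 insulin synthesis and secretion genes, *INS*, through its neighbourhood with the *IGF2* region, and *UNC13A*, a vesicle priming factor gene (2066 bp, mean count 682), were counted as wide, or 5.88% against 6.69%. None of 16 genes of other pancreatic cell types had a wide region, a share of up to 19.4% by the interval, though with a limit of 1500 bp the share of this list lay 17.1 percentage points above its bins.

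Senescence and p53 pathway genes had wide regions at 4 of 36, or 11.1% (4.41 to 25.3%), against 8.80%. *CDKN2A*, which encodes p16 and ARF, had 2 promoter regions. The wide one, at chr9:21993952-21996362, had 2411 bp, a mean count of 1849 and a CpG ratio of 0.92, with 2 lncRNA starts inside. Whether it holds the start of p16 or of ARF was not examined, so it cannot be taken as the p16 promoter. *LMNB1*, the lamin B1 gene, had 2281 bp and 3025. *CDKN2C*, which encodes the CDK inhibitor p18, had 2237 bp and 2520, and *GADD45A* had 2008 bp and 3006. The region of *CDKN1A*, the p21 gene, measured 1316 bp. Among 43 genes of the cell cycle and DNA replication, *CCNE2*, a cyclin E gene, had a wide region (2341 bp, mean count 1609), or 2.33% against 6.88%. Among 45 genes of the interferon response and antigen presentation it was *JAK1*, a cytokine receptor kinase gene (2245 bp, mean count 1112), or 2.22% against 4.02%. The bins' values lay inside the intervals of these 3 lists. Olfactory receptor and clustered protocadherin genes had 0 of 20 each, which the interval limits to 16.1%.

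Away from promoters, 1358 of 86251 autosomal regions were as wide, or 1.57% (1.49 to 1.66%). Their median mean count was 56.7, or 16.0 per kb, against 585 per kb in the wide promoter regions. Around the wide promoter regions, the mean number of other regions within 25 kb was 2.49, against 2.71 for narrower ones of like mean count. The nearest other region lay a median of 8553 bp away (7727 to 9214 bp), against 7445 bp. A wide region may include joined peaks that would otherwise count as neighbours, and the part of this in both measures was not tested. The order of the mean numbers turned when the comparison was limited to narrower regions of at least 1000 bp.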

How the data were processed

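The data come from 6 ATAC-seq libraries of EndoC-βH3, 3 senescent and 3 non-senescent by their labels. The study's methods state that the authors used Trim Galore for trimming and Bowtie2 with hg38 for alignment. Mitochondrial and duplicate reads were then discarded, positions were corrected for the Tn5 offset, MACS2 peaks were joined over all libraries and reads under the union were counted. Versions are not given in the sources used here. Widths are therefore those of joined peaks, which can grow with depth and with the number of libraries, and the part of joining in them was not tested.

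The signal used is the authors' deposited mean of the counts after division by DESeq2 size factors, over all 6 libraries. The 5 other columns hold the authors' comparison of the groups (fold change, its standard error, Wald statistic, p-value and adjusted p-value) and were not used. Depth per library cannot be read from the table. 0 regions lay past a chromosome end of the hg38 reference, and starts are printed 1-based.

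Regions were annotated with GENCODE 44 in Python 3.11.15 with pandas 2.3.3 and pyfaidx 0.9.0.4. Narrower regions were weighted to the wide ones over 20 bins of mean count, which leaves an effective number of 8361. The weighting was tested on simulated data. Shares carry 95% Wilson intervals, differences of shares Newcombe intervals and medians order-statistic intervals. CpG-island stretches used steps of 50 bp. No test was run, since regions are not replicates. The members, gene lists and named-gene rule were chosen with earlier results of these data known. Named were the 10 widest members, the 10 of highest and 5 of lowest mean count, the 5 extremes per kb, the 3 regions on either side of the limit, all wide members of both beta cell lists and the 3 widest of each other list. The text also names the other wide genes of the immediate early, housekeeping, ribosomal and senescence lists, and genes under the limit, which were chosen after their values were seen. Further names are marked as chosen after their values were seen, as were the printed sequences. The values of some genes are not reported here. Alternatives were other widths, start-site windows, bins, sequence windows and comparison regions. Bins of mean count with GC content were added after seeing the data.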

Additional observations from a re-analysis of the deposited data

How the results depend on the processing

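No paired analysis was possible because values of single libraries are not in the table used, and for the same reason no replicate could be left out. Of 46 alternatives for the main results, 28 left the value within its spread, 2 of them with the sign turned (regions with starts of at least 2 genes, −0.563 percentage points against narrower regions of at least 1000 bp and −0.440 in 2000 bp around the middle). With 1500 bp as the width limit, 3026 regions were wide, their median mean count was 1160, the CpG difference 1.9 per 100 bp and the GGGCGG difference 1.63 percentage points. The lists of other pancreatic cell types, developmental, ribosomal, ZNF and respiratory chain genes then differed from their bins by 17.1, 14.6, −11.1, −10.4 and −10.1 percentage points. With 3000 bp, 41 were wide, the median was 2103 and GGGCGG differed by −26.3 percentage points. The signs then turned, among others, for CpG (−0.6 per 100 bp), its observed over expected ratio (−0.0285), the length of the nearest gene (−16150 bp), neighbours within 25 kb (0.553) and the lists of developmental factors (−0.270 percentage points), housekeeping (−0.809), beta cell factors (−0.841), senescence (−0.871), HOX (−0.00890) and insulin secretion genes (2.36), and 3 lists lay above their bins. Without bins of mean count, the differences were 2.4 CpGs per 100 bp, 8.10 percentage points for regions with starts of at least 2 genes, −0.469 neighbours and 8.56 percentage points for GGGCGG. With bins of the count per kb they were 2.2, 7.41, −0.484 and 6.10. Against narrower regions of at least 1000 bp, CpG differed by 1 and neighbours by 0.0142. With 500 bp around the middle CpG differed by 0.6, within 100 kb neighbours differed by −0.744, and around the start site GGGCGG differed by 2.90 percentage points. The cause of these changes was not tested. The study's methods give only a range of depth over the samples. The unknown depth of each single library limits what the widths can show.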

Other observations

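On chromosomes 6, 10, 19 and 21, out of 22 autosomes, the interval of the wide share did not include the share given by the bins. These chromosomes were picked after all 22 were seen. On chromosome 19, 15 of 1276 promoter regions were wide, or 1.18% (95% Wilson interval 0.714 to 1.93%), against 3.78% given by the bins of mean count. On chromosome 6, 61 of 1052 were wide, or 5.80% (4.54 to 7.38%), against 3.84%, and on chromosome 21 13 of 208, or 6.25% (3.69 to 10.4%), against 3.38%. Chromosome 10 had 39 of 815, or 4.785% (3.52 to 6.475%), against 3.48%. Chromosome 6 carries a large histone gene cluster and chromosome 19 many ZNF genes, and the part of either in these shares was not tested.

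Start sites of at least 3 coding genes lay inside 9 of the 727 wide regions, or 1.24%, against 0.581% of narrower regions of like mean count. The difference was 0.657 percentage points (0.0421 to 1.76). A longer region can hold more starts by length alone, and this count was not repeated in a window of fixed length. Genes were counted by annotation entry, and whether such entries overlap one another was not examined. One of these wide regions held *BIVM* and *POGLUT2* among its genes (2301 bp, mean count 2837), chosen after its values were seen.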
